A study of Mus musculus with 18 samples.

Results

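The excitation-contraction coupling genes described here are 10 genes of the machinery that turns a muscle action potential into calcium release and then takes the calcium up again: Cacna1s, Cacng1, Ryr1, Trdn, Casq1, Casq2, Jph1, Jph2, Atp2a1 and Atp2a2. They were taken as a list of symbols, matched through Ensembl identifiers to the deposited expression table. All 10 of 10 were found among its 35275 genes. In skeletal muscle the surface membrane folds into transverse tubules that lie against the sarcoplasmic reticulum, the calcium store of the fibre. A voltage sensor in the tubule, the L-type calcium channel, touches a release channel in the store, and pumps of the SERCA family return calcium to the store after each contraction. Myoblasts build these junctions late, as they fuse into myotubes, so several of the genes serve as late markers of muscle differentiation.

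The study sequenced polyadenylated RNA of C2C12 cells, an established line of mouse myoblasts that fuse when serum is withdrawn. The stock was PAX7 negative per the labels, and all groups shared it. MUNC, a noncoding RNA made from a region upstream of Myod1, gives the study its subject, and the design asked how its spliced and its genomic (unspliced) form alter myogenic transcription. There were 6 groups with 3 biological replicates each: control cells, labelled wild-type, and 2 lines that overexpress MUNC in its spliced form (MUNC spliced) or in its genomic form (MUNC genomic), all in growth medium (GM, 20% fetal bovine serum, about 80% confluent) and after 3 days in differentiation medium (DM3, 2% horse serum). Groups follow the sample titles, with which another label (myoblasts or myotubes) disagrees for 9 samples. The labels do not say how overexpression was achieved, whether a line is 1 clone, or whether control cells carried an empty vector. The MUNC level itself was not analysed here, so overexpression was not checked. Nothing beyond the word biological says how the replicates were made, so p-values measure the spread between these cultures as labelled.

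Expression is given in FPM, the reads of a gene scaled by a library size factor and not by gene length. Depth was 38416702 to 68788327 reads per library, and 3 reads, the upper limit that a count of 0 allows, corresponded to 0.0429 to 0.0757 FPM. Such limits cover counting error only. Myod1, a myoblast transcription factor, was low for the label C2C12 in the 6 control libraries, at 0 to 0.221 FPM. It had 8.84 to 53.4 FPM in the MUNC spliced libraries and 1.66 to 22.5 FPM in the MUNC genomic libraries. Myf5, another myoblast factor, was not low in control cells, at 66.0 to 81.5 FPM in GM and 95.0 to 109.9 FPM in DM3. MUNC genomic libraries had 24.3 to 30.1 FPM of Myf5 in GM and 19.96 to 34.5 FPM in DM3. Myog, which encodes the differentiation factor myogenin, was at or below 0.434 FPM in all control libraries, DM3 included. The summed level of 11 markers of differentiating skeletal muscle was 72.7 to 106 FPM in control DM3, 212 to 1002 FPM in MUNC spliced DM3 and 933 to 1089 FPM in MUNC genomic DM3, where Des made up most of the sum (898 FPM on average). In bulk RNA, fewer cells of a type and less RNA per cell cannot be told apart.

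MUNC spliced DM3 replicate 1 stood apart from the other 2 libraries of its group. All 10 genes were higher in it than the mean of replicates 2 and 3, from 1.24-fold for Atp2a2 and 1.34-fold for Trdn to 3.61-fold for Casq2, 3.72-fold for Atp2a1 and 4.58-fold for Ryr1. Skeletal muscle markers were higher in the same library, from 2.30-fold for Des to 5.71-fold for Myh3, the embryonic myosin heavy chain. Cycling markers were higher in it as well: Mki67 had 192 FPM against 42.3 and 49.3 FPM in replicates 2 and 3, Top2a 455 FPM against 97.3 and 97.3 FPM, and the sum of 5 such markers was 905 FPM against 273 to 281 FPM. Values of called differences fitted without this library are given for the comparisons of MUNC spliced DM3 with GM and with control.

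**Figure D1:**
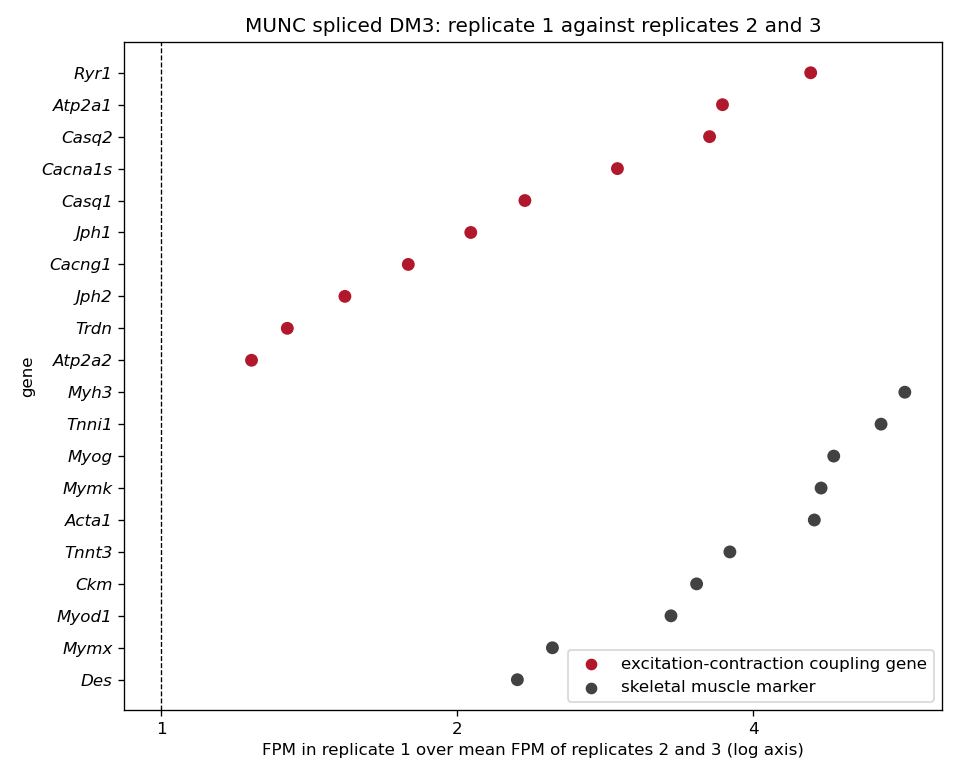
FPM in MUNC spliced DM3 replicate 1 divided by the mean FPM of replicates 2 and 3 (log axis, dashed line at 1), for the 10 excitation-contraction coupling genes and 10 skeletal muscle markers. All points lie above 1, and Ryr1 at 4.58 is the highest of the 10 genes.

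Comparisons used limma on log2(FPM + 1) over the 13869 genes with at least 0.5 FPM in 3 or more libraries, and called means a Benjamini-Hochberg adjusted p below 0.05. A difference on this scale understates the change of genes near 0. All 10 genes passed the filter, Casq1 in 6 libraries, Cacna1s in 7, Ryr1 in 12, Atp2a1 in 13, Trdn and Casq2 in 16 and the other 4 in all 18. The median difference of all tested genes lay between -0.03 and 0.03 on the log2 scale in every comparison. Comparisons of both MUNC lines with control share the control libraries, so their values are set side by side and were not correlated.

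Of the groups set against control, MUNC spliced DM3 had the most genes called. Against control DM3, 7 of the 10 genes were higher and 1 was lower, beside 43.3% of all tested genes called in either direction (22.3% higher and 21% lower). In MUNC genomic DM3, 2 were higher than in control DM3 and 0 lower, beside 40.3% of all tested genes (19.3% higher and 20.9% lower). In GM, MUNC spliced cells had 4 genes higher and 1 lower than control, beside 35.5% (18.2% higher and 17.3% lower). Scaling every library to an equal sum moved that split of all genes from 2530 higher and 2399 lower to 3241 and 1658. MUNC genomic cells in GM had 0 called by limma, beside 26.8% (12.2% higher and 14.5% lower, a split that equal sums moved from 1694 and 2017 to 2049 and 1598). There, 1 gene (Jph2) had an unadjusted p under 0.05, edgeR also called 0, and the authors' deposited table calls 1, Casq2, higher. A fit with the replicate number as a block gave larger shares of all tested genes. Against control in DM3 they were 53.3% for MUNC spliced and 50.5% for MUNC genomic, and in GM 46.6% and 37.4%. The counts of the 10 genes against control did not change in it.

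Over the 3 days of differentiation, control cells had 4 of the 10 genes higher and 2 lower, beside 58.2% of all tested genes (29.6% higher and 28.6% lower). MUNC spliced cells had 7 higher and 0 lower, beside 35.6% (17.2% higher and 18.4% lower). MUNC genomic cells had 4 higher and 0 lower, beside 51.4% (26.3% higher and 25.1% lower). The share of the 10 genes called was thus near the background in control differentiation, and below it in both comparisons of MUNC genomic cells with control. The median difference over the 10 genes was 1.84 for MUNC spliced against control in DM3 and 0.35 for MUNC genomic, and 0.35, 1.496 and 0.45 over differentiation in control, MUNC spliced and MUNC genomic cells.

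**Figure D2:**
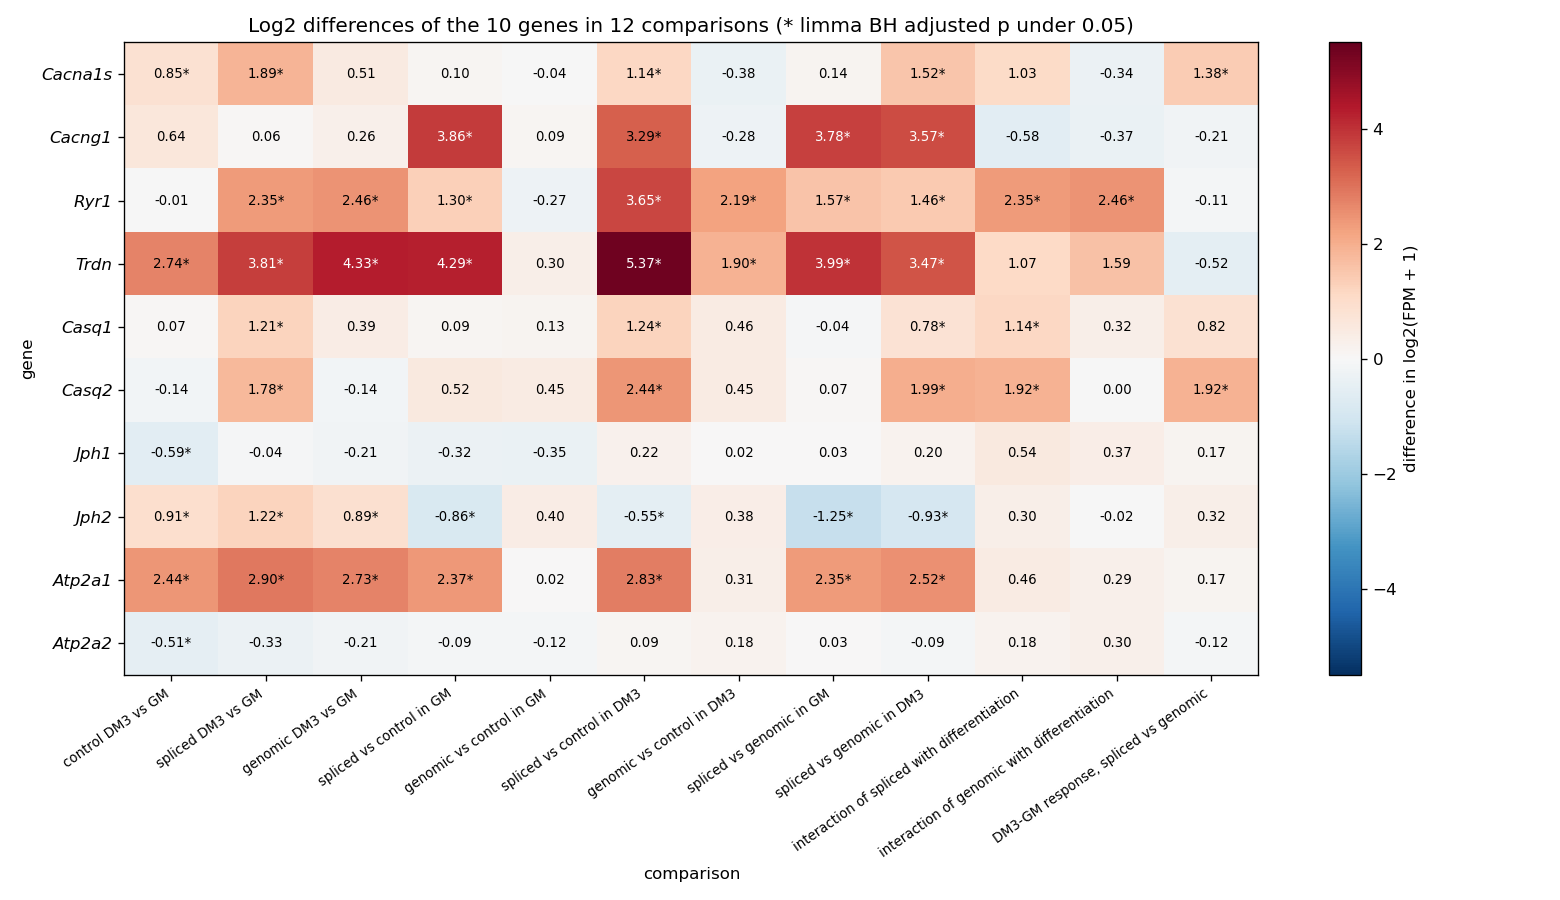
Difference in log2(FPM + 1) of the 10 genes (rows) in the 12 comparisons (columns), with the colour scale in log2 units. A star marks a limma Benjamini-Hochberg adjusted p under 0.05. The column for MUNC spliced against control in DM3 holds 8 stars and that for MUNC genomic against control in GM holds 0.

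Promoter sequence was looked at because several of these genes were higher together in MUNC spliced DM3. E-boxes, sequences of the form CANNTG, are bound by MYOD1 and myogenin, among other factors. RefSeq windows on GRCm38.p6 were given for 6 of the 10 genes, Cacna1s, Ryr1, Casq1, Casq2, Jph2 and Atp2a1. An E-box occurred in 5 of the 6 windows, against 72.3% of 32851 windows of 300 bases across the genome, and CAGCTG, which is its own reverse complement, in 4 of the 6, against 16.3%. The sequence CAGGTG, searched on both strands like the others, occurred in 1 of the 6, against 20.2%. Both of these sequences are also matches of the general form. For all 6 genes the stretch upstream of the annotated start is printed 5′ to 3′ on the gene's strand, with each E-box in capitals. They are 5 genes higher in MUNC spliced DM3 than in control DM3 and 1 gene, Jph2, lower.
Cacna1s, chr1:136052561-136052749, plus strand: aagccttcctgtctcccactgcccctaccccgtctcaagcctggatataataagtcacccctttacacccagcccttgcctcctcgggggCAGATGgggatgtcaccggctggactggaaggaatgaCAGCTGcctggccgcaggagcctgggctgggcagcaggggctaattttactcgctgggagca
Ryr1, chr7:29125180-29125401, minus strand: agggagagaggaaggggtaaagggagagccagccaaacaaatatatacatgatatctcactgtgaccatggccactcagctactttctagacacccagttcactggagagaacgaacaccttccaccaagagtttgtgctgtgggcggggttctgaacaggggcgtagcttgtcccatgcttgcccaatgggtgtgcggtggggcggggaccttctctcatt
Casq1, chr1:172219896-172220145, minus strand: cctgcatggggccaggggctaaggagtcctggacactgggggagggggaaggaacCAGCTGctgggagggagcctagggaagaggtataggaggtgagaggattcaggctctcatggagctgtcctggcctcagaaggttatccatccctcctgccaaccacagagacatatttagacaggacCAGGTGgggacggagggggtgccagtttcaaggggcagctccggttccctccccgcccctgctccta
Casq2, chr3:102086165-102086414, plus strand: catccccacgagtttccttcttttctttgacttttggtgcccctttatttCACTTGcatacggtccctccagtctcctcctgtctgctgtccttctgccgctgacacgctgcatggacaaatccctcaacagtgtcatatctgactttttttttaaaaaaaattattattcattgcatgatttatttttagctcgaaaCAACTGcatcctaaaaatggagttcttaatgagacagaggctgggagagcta
Atp2a1, chr7:126463109-126463323, minus strand: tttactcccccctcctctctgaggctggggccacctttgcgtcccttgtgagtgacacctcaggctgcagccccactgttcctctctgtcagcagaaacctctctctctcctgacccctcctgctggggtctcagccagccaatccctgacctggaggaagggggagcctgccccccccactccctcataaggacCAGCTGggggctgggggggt
Jph2, chr2:163397994-163398243, minus strand: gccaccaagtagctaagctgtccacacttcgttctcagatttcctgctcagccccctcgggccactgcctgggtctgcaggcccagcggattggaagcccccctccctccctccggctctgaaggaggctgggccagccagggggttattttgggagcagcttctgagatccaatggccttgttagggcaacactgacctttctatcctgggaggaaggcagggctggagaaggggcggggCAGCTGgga
The Ryr1 stretch held no E-box and that of Casq2 held 2, neither of them CAGCTG. The other 4 stretches each held 1 CAGCTG. These are matches of letters in a short window, and binding was not measured.

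Cacna1s (ENSMUSG00000026407, chr1:136052750-136119822, plus strand, GRCm38, protein coding) encodes the pore-forming subunit of the tubular calcium channel, the voltage sensor itself. It was the least abundant of the 10 genes per length in 5 of the 6 groups. Only DM3 libraries reached 0.5 FPM, so Cacna1s entered the test only through the groups where it was high. In control cells it had 0, 0.0885 and 0 FPM in GM and 0.365, 0.888 and 1.47 FPM in DM3, a difference of 0.85 (SE 0.30, limma adjusted p 0.0234). All 3 control DM3 libraries were above all 3 in GM, but the call was lost with no filter on low values (adjusted p 0.0531) and without control GM replicate 1 (0.0576), control GM replicate 3 (0.0563), control DM3 replicate 2 (0.0563) or control DM3 replicate 3 (0.114). It was kept in 5 of 6 other settings, edgeR among them (4.875, adjusted p 0.00324). The authors' deposited DESeq2 table has 4.97 (adjusted p 6.19e-07). MUNC spliced libraries had 0.0252, 0.0183 and 0.289 FPM in GM and 6.32, 1.27 and 3.07 FPM in DM3, a difference of 1.89 (adjusted p 0.000225), or 1.46 without DM3 replicate 1 (adjusted p 0.000278). That call held in all 6 other settings, no filter on low values among them, and edgeR put the difference at 4.916. MUNC genomic libraries had 0 reads in all 3 in GM and 0.0989, 0.648 and 0.585 FPM in DM3, which was at least 7.05-fold higher against a floor of 3 reads per library. That difference was not called by limma (0.51, adjusted p 0.173), and it passed with a pseudocount of 0.1 (adjusted p 0.00736), with only the 2 groups fitted (0.0287) and under edgeR (0.00447). Against the same floor, MUNC spliced DM3 was at least 56.4-fold and control DM3 at least 14.4-fold higher than MUNC genomic GM.

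In DM3 the MUNC spliced libraries exceeded control by 1.14 for Cacna1s (SE 0.30, limma adjusted p 0.00611), although the lowest of them, 1.27 FPM, lay below the highest control at 1.47 FPM. Without MUNC spliced DM3 replicate 1 the difference was 0.71 (adjusted p 0.0315), and the call was lost with only the 2 groups fitted (adjusted p 0.0628) and under edgeR on the recovered reads (1.97, adjusted p 0.0689). MUNC genomic DM3 did not pass against control DM3 (-0.38, 95% interval -1.02 to 0.25, adjusted p 0.335). The response to differentiation was larger in MUNC spliced than in MUNC genomic cells by 1.38, at a limma adjusted p of 0.0491. That call was lost without MUNC spliced DM3 replicate 1 (0.96, adjusted p 0.0886), with no filter on low values (0.101), with a pseudocount of 0.1 (0.206) and with only the compared groups (0.0826). It was also lost with any other single library left out except MUNC spliced DM3 replicate 2. Its sign turned under edgeR (-2.73, adjusted p 0.570), whose fold change against the all-zero MUNC genomic GM group depends on the prior count. Its exons overlap those of an antisense transcript, Gm37759, over 20.0% of their length, and whether counting used the strand is not given in the sources used here.

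Cacng1 (ENSMUSG00000020722, chr11:107703218-107716522, minus strand) encodes the gamma subunit of the skeletal muscle channel. Unlike Cacna1s, it was high in MUNC spliced cells in both media. MUNC spliced libraries had 29.7, 44.4 and 29.2 FPM in GM and 51.7, 29.8 and 28.3 FPM in DM3. Control libraries had 1.81, 1.35 and 1.08 FPM in GM and 1.42, 2.51 and 5.05 FPM in DM3, and MUNC genomic libraries 1.65, 1.91 and 1.13 FPM in GM and 1.64, 2.74 and 1.87 FPM in DM3. All 6 MUNC spliced libraries were above all 12 others. The difference from control was 3.86 in GM (SE 0.29, limma adjusted p 4.80e-08) and 3.29 in DM3 (SE 0.29, limma adjusted p 2.40e-07, 3.01 without replicate 1). Differentiation made no called difference in MUNC spliced cells (0.06, 95% interval -0.56 to 0.68), in MUNC genomic cells (0.26, -0.36 to 0.88) or in control (0.64, 0.02 to 1.26, limma adjusted p 0.0731). The control difference did pass under edgeR (1.05, adjusted p 0.0310) and in the authors' deposited table (1.05, adjusted p 0.0269).

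Ryr1 (ENSMUSG00000030592, chr7:29003344-29125179, minus strand) encodes the skeletal ryanodine receptor, the channel through which the store releases calcium. It rose with differentiation in both MUNC lines and not by a called amount in control. Control libraries had 0.529, 0.460 and 0.553 FPM in GM and 0.269, 0.848 and 0.460 FPM in DM3, a difference of -0.01 (95% interval -0.83 to 0.82). In MUNC spliced libraries it had 2.17, 3.13 and 2.96 FPM in GM and 48.9, 10.1 and 11.3 FPM in DM3. MUNC genomic libraries had 0.258, 0.371 and 0.147 FPM in GM and 4.55, 8.25 and 5.39 FPM in DM3. Ryr1 therefore rose over differentiation in MUNC spliced cells by 2.35 (SE 0.39, limma adjusted p 0.000301, 1.65 without DM3 replicate 1) and in MUNC genomic cells by 2.46 (SE 0.39, limma adjusted p 7.92e-05), with no overlap between media in either line.

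The tests of the difference itself passed for both lines. The rise of Ryr1 exceeded that of control in MUNC spliced cells by 2.35 (SE 0.55, limma adjusted p 0.0117) and in MUNC genomic cells by 2.46 (SE 0.55, limma adjusted p 0.00953). Without MUNC spliced DM3 replicate 1 the first of these was 1.65 (adjusted p 0.00159). In the MUNC spliced interaction 3 of the 10 genes were called, all higher, beside 14.4% of all tested genes (7.43% higher and 6.94% lower). The split of all genes there was 1030 higher and 963 lower, against 802 and 1133 with equal sums and 1042 and 635 under edgeR. In that of MUNC genomic 1 was called, higher, beside 8.81% (3.56% higher and 5.25% lower). With the replicate number as a block in the fit, these shares of all tested genes were 27.9% and 16.3%, while 3 and 1 of the 10 genes were called as before. The labels do not say that a number marks a shared culture. The responses of the 2 lines to differentiation differed by -0.11 (95% interval -1.28 to 1.05), which was not called. That value was -0.81 without MUNC spliced DM3 replicate 1 (adjusted p 0.0724) and -1.40 under edgeR (adjusted p 0.279), so whether the lines responded alike cannot be read from it. Their starting levels did differ: in GM, MUNC spliced cells were above control by 1.30 (limma adjusted p 0.0162) and above MUNC genomic cells by 1.57 (adjusted p 0.00482). The GM difference from control missed the threshold without MUNC spliced GM replicate 2 (1.23, adjusted p 0.0537). In DM3, Ryr1 was higher than in control by 3.65 in MUNC spliced (adjusted p 1.65e-06, 2.95 without replicate 1) and by 2.19 in MUNC genomic cells (adjusted p 0.000271). On the scale of reads, where low values are not compressed, edgeR put these at 5.49 and 3.55. The 2 lines differed in DM3 by 1.46 (limma adjusted p 0.00603), or by 0.76 without MUNC spliced DM3 replicate 1 (adjusted p 0.00646), and the call was lost when only the 2 groups were fitted (adjusted p 0.0647).

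**Figure D3:**
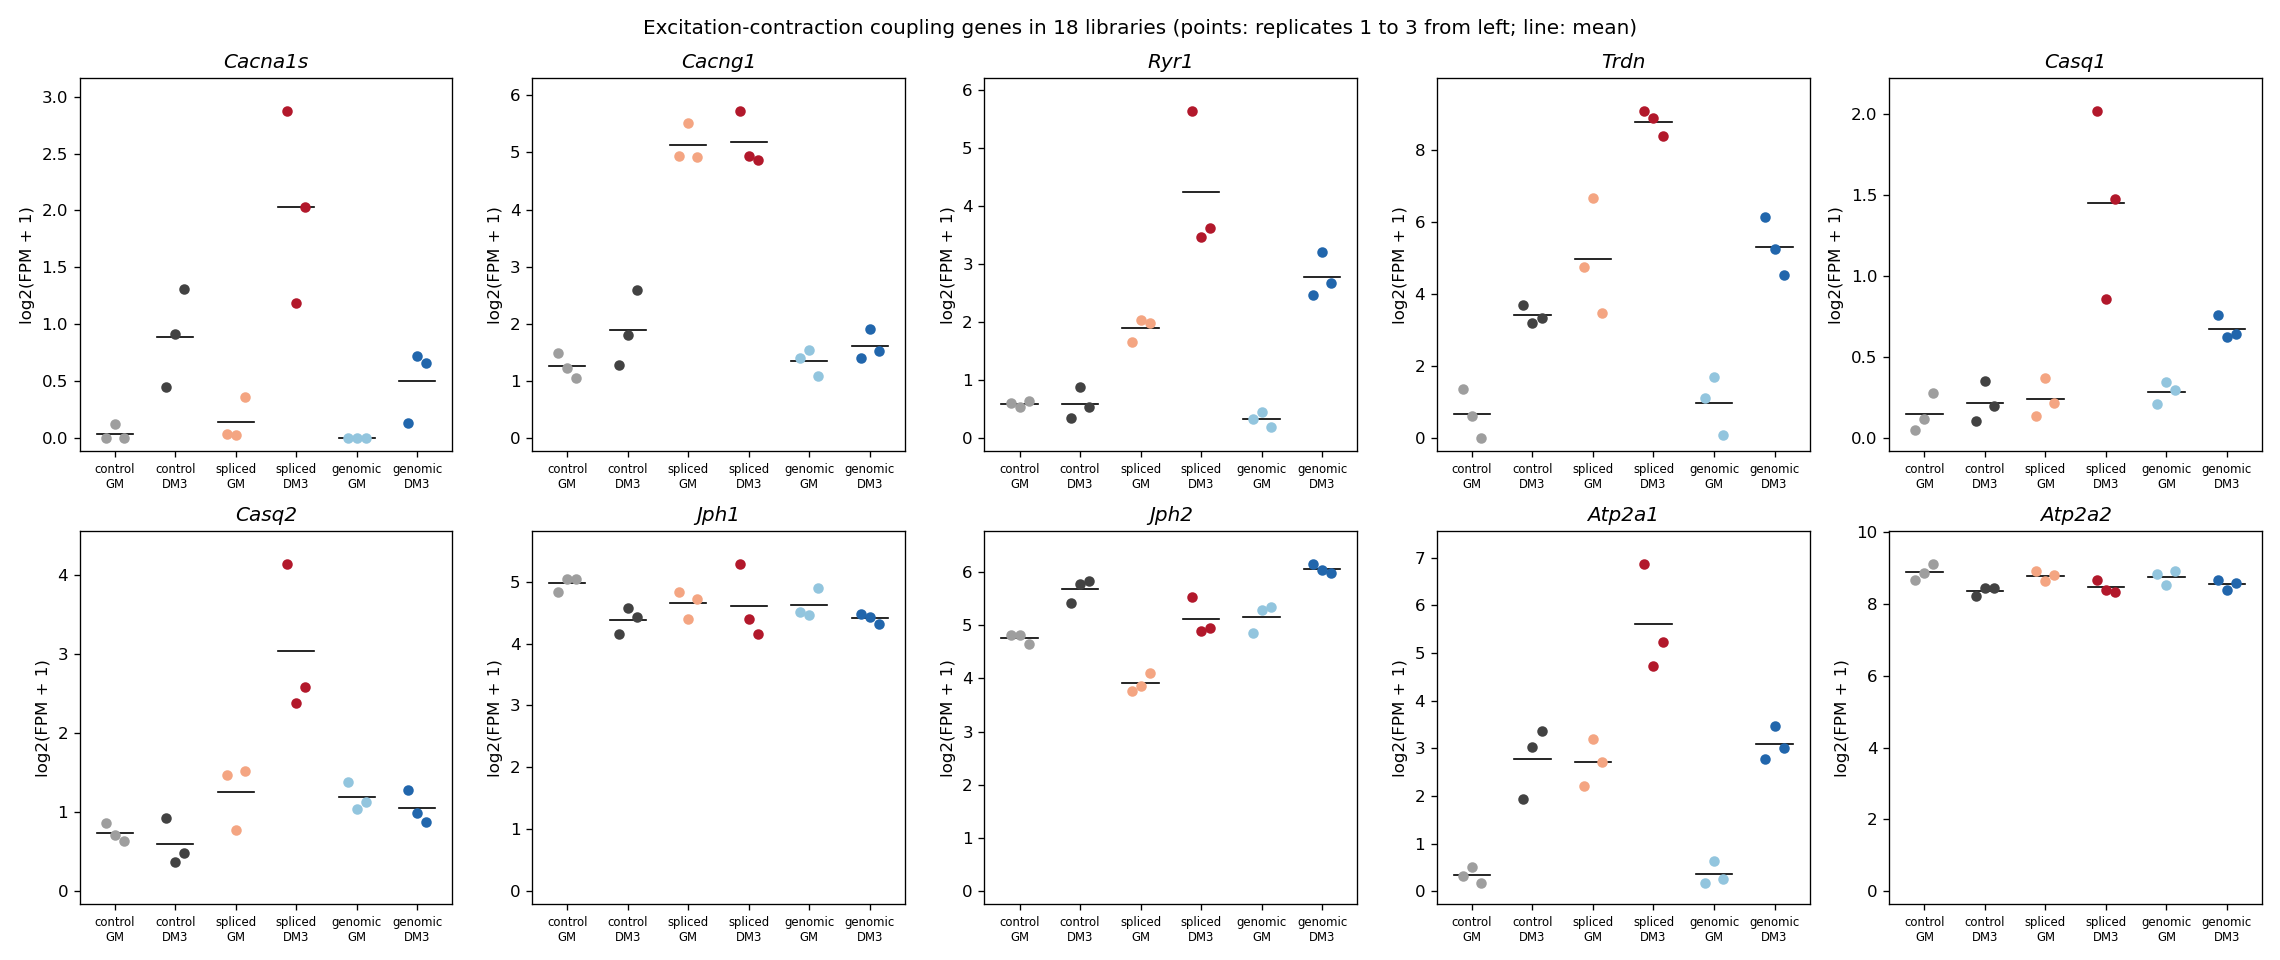
Expression of each of the 10 genes as log2(FPM + 1), with 3 replicate libraries per group as points and the group mean as a line. MUNC spliced DM3 replicate 1 is the highest point of its group for all 10 genes, and Ryr1 in DM3 lies above control in all 3 libraries of both MUNC lines.

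Trdn (ENSMUSG00000019787, chr10:33080554-33476709, plus strand) encodes triadin, which anchors calsequestrin to the release channel inside the store. It showed the widest range of the 10 genes, from 0.0154 FPM, which is 1 read, in control GM replicate 3 to 538 FPM in MUNC spliced DM3 replicate 1. Control libraries had 1.60, 0.531 and 0.0154 FPM in GM and 11.98, 8.21 and 9.08 FPM in DM3. In the MUNC spliced libraries Trdn had 25.9, 99.9 and 10.2 FPM in GM and 538, 469 and 333 FPM in DM3. MUNC genomic libraries had 1.17, 2.28 and 0.0630 FPM in GM and 69.0, 37.3 and 22.1 FPM in DM3. Every line rose over differentiation with no overlap: control by 2.74 (SE 0.62, limma adjusted p 0.00122), MUNC spliced by 3.81 (adjusted p 0.000248, 3.67 without DM3 replicate 1) and MUNC genomic by 4.33 (adjusted p 3.03e-05). On the scale of reads, edgeR put these rises at 3.744, 3.317 and 5.135. Replicate 3 was the lowest in GM in all 3 lines, and the 3 control GM values rested on 94, 30 and 1 reads.

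MUNC spliced cells were above control by 4.29 in GM (SE 0.62, limma adjusted p 6.27e-05) and by 5.37 in DM3 (adjusted p 3.82e-06) for Trdn. Leaving out MUNC spliced DM3 replicate 1 gave 5.22 in DM3. MUNC genomic cells were above control in DM3 by 1.90 (adjusted p 0.0214). This call was lost with a pseudocount of 0.1 (adjusted p 0.117), with no filter on low values (0.0526), and without control DM3 replicate 2 (0.0661), control DM3 replicate 3 (0.0564) or MUNC genomic DM3 replicate 1 (0.104). All 3 MUNC genomic DM3 libraries were nevertheless above all 3 of control. Its responses to differentiation did not differ by a called amount between the lines.

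Casq1 (ENSMUSG00000007122, chr1:172209894-172219868, minus strand) encodes the calsequestrin of fast skeletal fibres, the calcium-binding protein that fills the store. It was close to the limit of detection in 4 groups, with 2 to 16 reads per library. Control libraries had 0.0341, 0.0885 and 0.215 FPM in GM and 0.0768, 0.276 and 0.147 FPM in DM3. Casq1 in MUNC spliced libraries had 0.101, 0.293 and 0.162 FPM in GM and 3.06, 0.819 and 1.79 FPM in DM3, and MUNC genomic libraries 0.158, 0.270 and 0.231 FPM in GM and 0.692, 0.542 and 0.566 FPM in DM3. Only the DM3 libraries of the 2 MUNC lines reached 0.5 FPM, so Casq1 entered the test only through the groups where it was high, and had to differ between groups to enter it.

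Casq1 rose in MUNC spliced cells over differentiation by 1.21 (SE 0.19, limma adjusted p 0.000208) and exceeded control DM3 by 1.24 (adjusted p 8.05e-05). Without DM3 replicate 1 these were 0.93 and 0.95. With no filter on low values, which removes that condition, the adjusted p-values were 0.000777 and 0.000291. This rise was larger than that of control by 1.14 (SE 0.27, limma adjusted p 0.0125), or 0.86 without MUNC spliced DM3 replicate 1 (adjusted p 0.0143). Its adjusted p was 0.0256 with no filter and 0.0502 under edgeR. In MUNC genomic cells the libraries of the 2 media did not overlap, but the difference of 0.39 did not pass in limma (adjusted p 0.0986). It passed with a pseudocount of 0.1 (adjusted p 0.0335), when only the 2 groups compared were fitted (0.00364) and under edgeR (0.0454). Against control DM3 the MUNC genomic value was 0.46 in limma (adjusted p 0.0675), with no overlap of the libraries. This value passed with a pseudocount of 0.1 (adjusted p 0.0121), with only the 2 groups fitted (0.00561) and under edgeR (1.85, adjusted p 0.0203). The authors' deposited table has 1.87 with an adjusted p of 0.00532.

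Casq2 (ENSMUSG00000027861, chr3:102086415-102146514, plus strand) encodes the calsequestrin of heart and slow fibres. It showed no called response to differentiation in control cells, with 0.819, 0.637 and 0.553 FPM in GM and 0.903, 0.296 and 0.405 FPM in DM3 (-0.14, 95% interval -0.84 to 0.57). MUNC genomic libraries had 1.60, 1.06 and 1.20 FPM in GM and 1.42, 0.979 and 0.839 FPM in DM3 (-0.14, -0.84 to 0.56). MUNC spliced libraries had 1.77, 0.715 and 1.88 FPM in GM and 16.6, 4.20 and 4.99 FPM in DM3. The MUNC spliced rise of 1.78 passed (SE 0.33, limma adjusted p 0.000744, 1.22 without DM3 replicate 1) and every DM3 library was above every GM library.

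For Casq2 this response was larger than that of control by 1.91 (SE 0.47, limma adjusted p 0.0148) and larger than that of MUNC genomic cells by 1.92 (adjusted p 0.0164). The last comparison, of the 2 lines' responses, called 2 of the 10 genes, Casq2 and Cacna1s, both higher, beside 10.5% of all tested genes (5.36% higher and 5.17% lower). With the replicate number as a block in the fit that share was 19.6%, with 2 of the 10 genes called as before. Both Casq2 differences held without MUNC spliced DM3 replicate 1, at 1.36 (adjusted p 0.00868) and 1.36 (adjusted p 0.00685). In DM3, Casq2 was above control by 2.44 in MUNC spliced cells (limma adjusted p 2.32e-05, 1.88 without replicate 1). Casq2 is also a cardiac gene, and the summed level of 7 cardiac markers was 9.17 to 11.5 FPM in MUNC spliced DM3 and 14.98 to 19.7 FPM in control DM3, mostly from Nkx2-5 (9.25 and 16.5 FPM on average). Myl7, the atrial myosin light chain, had 0 reads in both groups, and Myh6, the alpha myosin heavy chain, had 3 to 13 reads in MUNC spliced DM3 libraries and 0 in control DM3. Their part in the Casq2 result was not tested.

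Jph1 (ENSMUSG00000042686, chr1:16964560-17097889, minus strand) and Jph2 (ENSMUSG00000017817, chr2:163336242-163397993, minus strand) encode junctophilins, which tie the tubule to the store, Jph1 mainly in skeletal muscle and Jph2 in heart and skeletal muscle. Both were present in every library. Jph1 ranged from 16.7 to 37.9 FPM over the 18 libraries, and neither MUNC line differed from control by a called amount in either medium. Its one call was a fall over differentiation in control cells by 0.59 (SE 0.22, limma adjusted p 0.0330), from 27.5, 32.0 and 31.8 FPM to 16.8, 22.8 and 20.5 FPM. That call was lost with no filter on low values (adjusted p 0.0649) and without control GM replicate 2 (0.0794), control GM replicate 3 (0.0811), control DM3 replicate 1 (0.120) or control DM3 replicate 3 (0.0603). It was kept in 5 of 6 other settings, edgeR among them (-0.64, adjusted p 0.0280). The authors' deposited DESeq2 table has -0.63 (adjusted p 0.00143).

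Jph2 rose with differentiation in all 3 lines. Control libraries went from 27.3, 27.1 and 24.1 FPM in GM to 41.9, 53.6 and 55.7 FPM in DM3 (0.91, SE 0.17, limma adjusted p 0.000261). MUNC spliced libraries went from 12.6, 13.5 and 16.1 FPM to 44.99, 28.8 and 29.7 FPM (1.22, adjusted p 7.80e-05, 1.01 without DM3 replicate 1). MUNC genomic libraries went from 27.9, 37.8 and 39.8 FPM to 69.9, 64.8 and 61.9 FPM (0.89, adjusted p 0.000395). The libraries of the 2 media did not overlap in any line.

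Jph2 was the one gene of the 10 called lower in MUNC spliced cells than in control, with a difference of -0.86 in GM (limma adjusted p 0.00104) and no overlap. In DM3 the difference was -0.55 (adjusted p 0.0151), and MUNC spliced replicate 1 at 44.99 FPM lay above the lowest control at 41.9 FPM. Without that library it was -0.75 (adjusted p 0.00141). The DM3 call was lost when only the 2 groups compared were fitted (adjusted p 0.0570) and without control DM3 replicate 2 (0.0576), control DM3 replicate 3 (0.0664), MUNC spliced DM3 replicate 2 (0.0743) or MUNC spliced DM3 replicate 3 (0.0635). It was kept in 5 of 6 other settings, edgeR among them (-0.53, adjusted p 0.0220). MUNC genomic cells stood on the other side of control, by 0.40 in GM (adjusted p 0.0947) and 0.38 in DM3 (adjusted p 0.0846), neither of them called. The 2 MUNC lines differed from each other by -1.25 in GM (adjusted p 2.57e-05) and -0.93 in DM3 (adjusted p 0.000294), spliced lower.

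Atp2a1 (ENSMUSG00000030730, chr7:126445858-126463108, minus strand) encodes SERCA1, the calcium pump of fast skeletal fibres. It rose over differentiation in all 3 lines, by 2.44 in control (SE 0.44, limma adjusted p 0.000190), 2.90 in MUNC spliced (adjusted p 0.000148, 2.27 without DM3 replicate 1) and 2.73 in MUNC genomic cells (adjusted p 9.25e-05). On the scale of reads, edgeR put these rises at 4.557, 3.365 and 4.696, so their order depends on the scale. The MUNC spliced rise differed from that of control by -1.19 under edgeR (adjusted p 0.386), which was not called. Control libraries had 0.256, 0.425 and 0.123 FPM in GM and 2.84, 7.20 and 9.23 FPM in DM3. Those of MUNC spliced had 3.66, 8.18 and 5.54 FPM in GM and 116, 25.3 and 36.8 FPM in DM3. MUNC genomic libraries had 0.129, 0.557 and 0.189 FPM in GM and 5.88, 10.1 and 7.08 FPM in DM3. MUNC spliced libraries in GM overlapped those of control and MUNC genomic cells in DM3.

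MUNC spliced exceeded control for Atp2a1 by 2.37 in GM (SE 0.44, limma adjusted p 0.000602) and by 2.83 in DM3 (adjusted p 8.17e-05, 2.20 without replicate 1). MUNC genomic cells did not differ from control by a called amount in GM (0.02, 95% interval -0.91 to 0.95) or in DM3 (0.31, -0.62 to 1.24), and no interaction was called. The exons of Atp2a1 overlap those of Rabep2, a protein coding gene on the opposite strand, over 763 bases (21.9% of the Atp2a1 exons). Rabep2 had 13.3 to 29.1 FPM in the 18 libraries, including those where Atp2a1 was at or under 0.557 FPM.

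Atp2a2 (ENSMUSG00000029467, chr5:122453513-122502225, minus strand) encodes SERCA2, whose isoforms serve heart and slow muscle and, as a housekeeping pump, most other cells. It had the highest FPM of the 10 genes in all libraries but those of MUNC spliced DM3, where Trdn was higher. Control libraries had 405, 460.5 and 549 FPM in GM and 299, 346 and 345 FPM in DM3, a fall by 0.51 (SE 0.14, limma adjusted p 0.00477). MUNC spliced libraries had 483, 397 and 441 FPM in GM and 403, 330.1 and 322 FPM in DM3 (-0.33, adjusted p 0.0749), and MUNC genomic libraries 451, 369 and 479 FPM in GM and 405, 335 and 379 FPM in DM3 (-0.21, adjusted p 0.214). The MUNC spliced value passed without replicate 1 of DM3 (-0.43, adjusted p 0.0310) and with every library scaled to an equal sum (-0.36, adjusted p 0.0371). It also passed in limma with the replicate number as a block (-0.33, adjusted p 0.0440). Neither MUNC line differed from control by a called amount, with 95% intervals of -0.38 to 0.20 and -0.41 to 0.17 in GM and of -0.20 to 0.38 and -0.11 to 0.47 in DM3.

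The balance within the 3 pairs of related genes was compared per length, as a share of the pair's FPM per kilobase of annotated exons. SERCA1 made up 0.104% ± 0.0613 (SD, n = 3) of the SERCA pair in control GM and 3.21% ± 1.44 in control DM3. It reached 20.6% ± 11.3 in MUNC spliced DM3, from 11.8% to 33.4%, where the other groups had 2.31% in MUNC spliced GM, 0.127% in MUNC genomic GM and 3.54% in MUNC genomic DM3. Every MUNC spliced DM3 library was above every other library. In the junctophilin pair the first gene had the lower share after differentiation: Jph1 held 49.7% ± 3.38 in control GM and 25.3% ± 1.38 in control DM3, 59.4% ± 4.82 and 37.1% ± 4.67 in MUNC spliced, and 36.7% ± 4.11 and 20.8% ± 0.386 in MUNC genomic cells. Within every line, GM and DM3 did not overlap. Casq1 held 18.3% to 44.3% of the calsequestrin pair on average, with replicates spanning 10.7% to 56.7% in control DM3. MUNC genomic DM3 libraries, at 40.5%, 43.7% and 48.6%, were above all libraries of the other groups except control DM3, which overlapped every group. These shares are descriptions with no test, and the SERCA share in MUNC spliced DM3 was 16.3% when the length of the longest coding transcript was used.

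**Figure D4:**
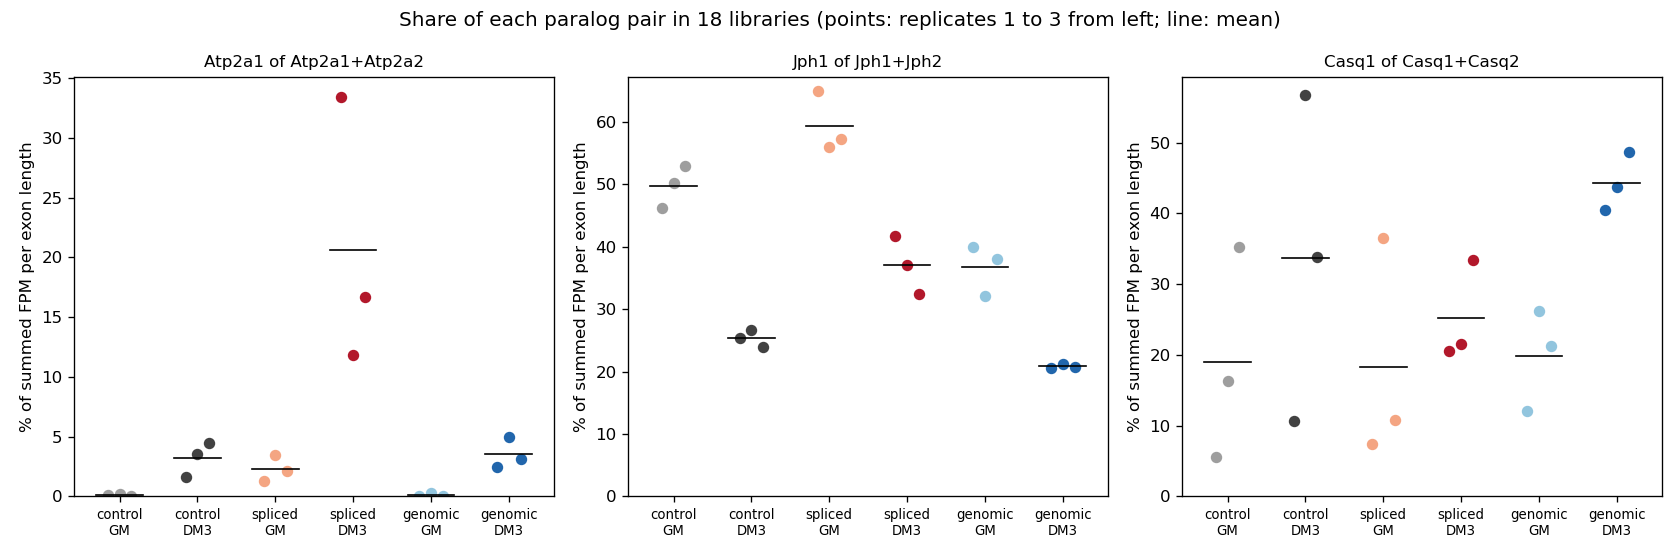
Share of the first gene in the summed FPM per exon length of each related pair, in percent, with 3 libraries per group as points and the mean as a line. The SERCA1 share of MUNC spliced DM3 (11.8% to 33.4%) lies above all other libraries, and the Jph1 share is lower in DM3 than in GM in each line.

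Per kilobase of exon, Atp2a2 led in every group, with a mean of 54.2 to 77.5 FPM per kilobase. In control GM it was followed by Jph2 (6.15) and Jph1 (6.08), which did not differ beyond their spread, and then by Cacng1 at 1.13 FPM per kilobase. In MUNC spliced DM3 the order was Atp2a2 (57.8 ± 7.31), Trdn (47.8 ± 11.2), Cacng1 (29.3 ± 10.5) and Atp2a1 (17.0 ± 14.1), and each neighbour's libraries overlapped the next. With the length of the longest coding transcript in place of all exons, Trdn stood first there at 99.0 FPM per kilobase. In MUNC genomic DM3, Jph2 was second at 15.4 ± 0.958 followed by Trdn at 4.58 ± 2.55 FPM per kilobase. The voltage sensor Cacna1s and the release channel Ryr1 were among the lowest 3 even in MUNC spliced DM3, at 0.543 and 1.07 FPM per kilobase.

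A wider list of 34 genes of calcium handling, excitation and the triad was read beside the 10. The table listed 33 of them and 23 passed the filter. In control differentiation 11 were higher and 2 lower (58.2% of all tested genes called), in MUNC spliced 9 and 1 (35.6%), and in MUNC genomic 9 and 2 (51.4%). Jsrp1, which encodes a junctional protein that binds the voltage sensor, rose in all 3 lines (2.16 in control, 1.47 in MUNC spliced and 1.38 in MUNC genomic cells, limma adjusted p 2.28e-05, 0.00176 and 0.00148). Fkbp1a, which encodes the FK506-binding subunit of the release channel, was the lowest in each (-0.74, -0.39 and -0.54). The other genes among the 3 highest of a line were Kcnj2, an inward rectifier potassium channel (1.82 in control and 1.65 in MUNC spliced), Cacna2d1, the alpha-2-delta subunit of the voltage sensor (1.17 in control and 1.29 in MUNC genomic), Hrc, a store protein that binds calcium (1.72 in MUNC spliced), and Mrln, which encodes the SERCA inhibitor myoregulin (1.56 in MUNC genomic). The other lowest calls were Stim2, a sensor of store calcium (-0.36 in control), and Clcn1, the muscle chloride channel (-0.32 in MUNC genomic).

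Against control, MUNC spliced cells had 7 wider genes higher and 3 lower in GM (35.5% of all tested genes called) and 8 and 3 in DM3 (43.3%). Highest were Srl, which encodes sarcalumenin of the store (1.87 in GM and 1.93 in DM3), Stac3, which couples the voltage sensor to the release channel (1.14 and 1.64), and Kcnj2 (1.73 and 1.57). Lowest were Clcn1 (-1.14 and -2.12), Mtm1, which encodes the phosphatase myotubularin (-1.01 and -1.10), and Fkbp1a in GM (-0.56) and Fkbp1b in DM3 (-1.02). MUNC genomic cells had 3 higher and 5 lower in GM (26.8%) and 7 and 8 in DM3 (40.3%). Their lowest were Mtm1 (-3.67 and -4.51), Kcnj2 (-2.20 and -3.43) and Fkbp1b (-1.16 and -1.85), and their highest Cacna2d1 (1.14 and 1.27), with Tmem38b, a potassium channel of the store (0.65), and Stim1 (0.39) in GM and Mrln (1.14) and S100a1, a calcium sensor (1.02), in DM3.

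The 2 lines compared directly gave 7 wider genes higher in MUNC spliced and 1 lower in GM, and 10 and 6 in DM3. Kcnj2 (3.93 in GM and 4.999 in DM3), Mtm1 (2.67 and 3.40) and Srl (1.38 and 1.80) were the highest in both media. Clcn1 was the lowest in GM (-0.82), and S100a1 (-1.25), Mrln (-0.97) and Cacna2d1 (-0.82) in DM3. Of the 10 genes in the same 2 comparisons, 4 were higher and 1 lower in GM, beside 35.8% of all tested genes (19.9% higher and 16% lower), and 7 were higher and 1 lower in DM3, beside 44.2% (23.4% higher and 20.8% lower). In the interactions the wider list had 0 higher and 2 lower for MUNC spliced (14.4% of all tested genes called), Clcn1 (-0.99) and Fkbp1b (-0.91). It had 3 higher and 2 lower for MUNC genomic (8.81%): Stim2 (0.87), Stim1 (0.56) and Ryr3, another release channel (0.53), then Clcn1 (-1.17) and Fkbp1b (-0.70). Between the responses of the 2 lines 0 were higher and 5 lower (10.5%), with Mrln (-1.26), S100a1 (-0.88) and Stim1 (-0.60) lowest.

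**Figure D5:**
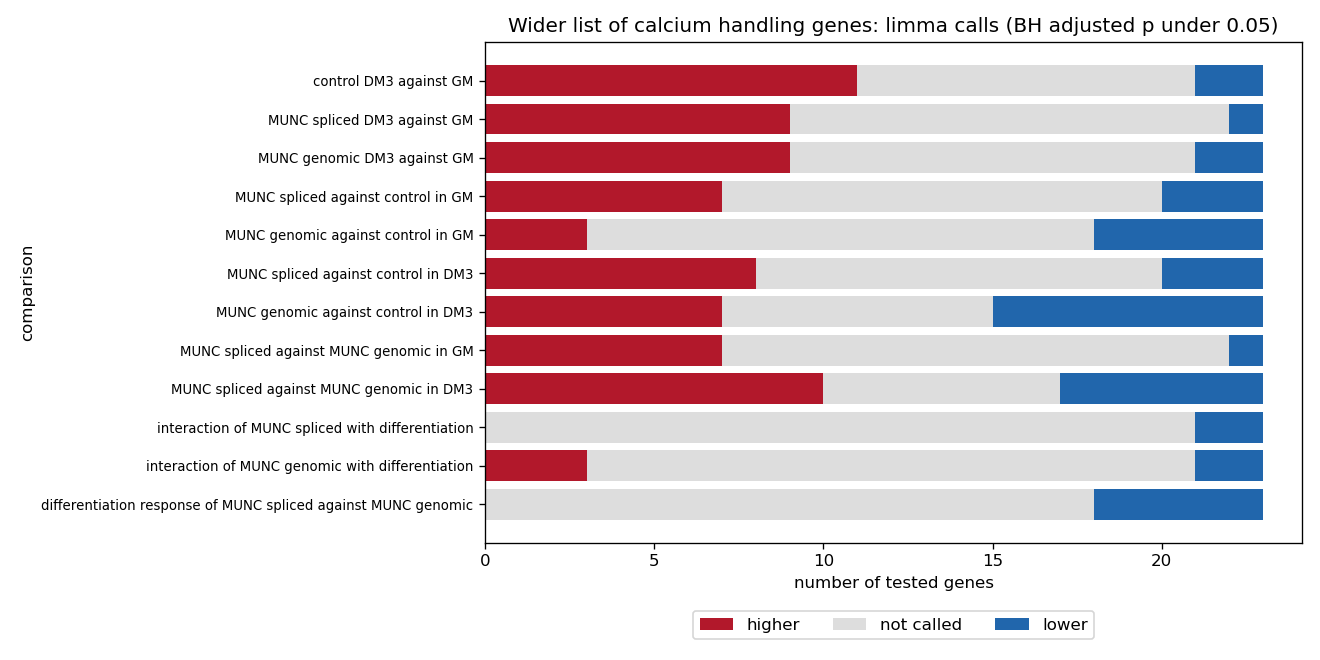
Number of the 23 tested genes of the wider list that were higher, lower or not called (limma adjusted p under 0.05) in each of the 12 comparisons. In MUNC genomic against control in DM3, 7 were higher and 8 lower.

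Of the tested genes outside these 2 lists, the 3 whose log2(FPM + 1) was most like each member over the 18 libraries were found by Pearson r, as a description. These libraries form 6 groups, so r mostly reflects 6 group means. Ryr1 was most like Myh3 (0.987), Ppfia4 (0.981) and Gm7325, an older symbol of the fusion gene Mymx (0.976). Atp2a1 was most like mmu-mir-133b (0.983), Ttn, which encodes titin (0.968), and Exoc3l (0.962). Cacng1 was most like Robo1 (0.989), Igfbp3 (0.979) and Rnf32 (0.976), none of them a contractile gene, and Trdn most like Nid2 (0.973), Sparc (0.972) and 1700112E06Rik (0.965). Casq1 was most like Actc1 (0.950), Ctxn3 (0.940) and Mybph (0.939), Casq2 most like Lmod2 (0.950), Pkhd1 (0.941) and Trim72 (0.937), and Cacna1s most like Igf2os (0.945), Neb (0.920) and Otog (0.916). Jph2 was most like March9 (0.924), Il17rc (0.901) and Tmed4 (0.899), Atp2a2 most like Slc35a4 (0.891), Prkar2a (0.883) and Slco2a1 (0.876), and Jph1 most like Ddah1 (0.813), Rtn4 (0.809) and Thap1 (0.792).

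Other markers moved with the groups as well. The summed level of 5 cycling myoblast markers was 1459 to 2557 FPM in GM and 239 to 905 FPM in DM3, with control DM3 at 284 to 417 FPM and MUNC spliced DM3 replicate 1 at the top. Of these 5, Mki67, Top2a, Ccnb1 and Cdk1 had a lower mean after differentiation in each line. Myf5 went the other way, from a mean of 71.8 to 103.3 FPM in control and from 58.7 to 107.6 FPM in MUNC spliced cells. In MUNC genomic cells the means of Myf5 were 26.7 and 29.4 FPM, with overlapping libraries. The sum of 5 neuronal markers was 333 to 635 FPM in control GM. It was 30.6 to 92.8 FPM in MUNC spliced GM and 192 to 258 FPM in MUNC genomic GM. In each line the sum was lower in DM3. Its members did not all go the same way. Against control GM, the mean of MUNC spliced GM was lower for Nefl (2.45 against 265 FPM) and Nefm (0.112 against 161 FPM). Stmn2 was lower there too, and Tubb3 was higher (58.3 against 37.4 FPM), with overlapping libraries. In MUNC genomic GM, Stmn2 was higher than in control GM (92.3 against 1.06 FPM), while Nefl, Nefm and Tubb3 were lower. The sum of 5 smooth muscle and myofibroblast markers was 1194 to 1372 FPM in control DM3, 1911 to 3208 FPM in MUNC spliced DM3 and 2274 to 3648 FPM in MUNC genomic DM3. Acta2 made up most of it, with 1234, 2247 and 2608 FPM on average in these groups. Tagln went the same way (49.2, 108 and 138 FPM) and Cnn1 the other way (6.36, 0.560 and 1.75 FPM). Myh11 and Myocd did not pass the filter. Adipocyte sums stayed between 2.83 and 12.9 FPM, macrophage sums between 0.854 and 5.53 FPM and osteoblast sums between 47.3 and 107 FPM, with Runx2 as the one osteoblast marker that passed the filter on low values. Their part in the results for the 10 genes was not tested.

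The authors' deposited tables, made with DESeq2, call the 10 genes much as limma did: 7 higher and 1 lower in MUNC spliced against control in DM3, 4 and 1 in GM, 5 and 2 in control differentiation, 4 and 0 in MUNC genomic against control in DM3, and 1 and 0 in GM. The added calls in these tables are Cacng1 in control differentiation, Casq1 and Jph2 in MUNC genomic DM3 (0.40 for Jph2, adjusted p 0.0144) and Casq2 in MUNC genomic GM (0.99, adjusted p 0.0447). Cacna1s in MUNC genomic GM has no adjusted p there.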

How the data were processed

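RNA-seq of 18 C2C12 libraries was deposited as 1 table of FPM, a normalized signal, for 35275 genes. The submitters' processing notes name STAR, HTSeq, DESeq2 and the build mm10; versions, annotation release and strand setting are not given in the sources used here. Coordinates are GRCm38. The authors also deposited 5 tables of log2 fold changes, p-values and scores (mean and test statistic); the scores were not used. The deposited FPM values were whole reads divided by a size factor: all values (100%) fell within 0.0354 of a whole read (tolerance 0.1), at 38416702 to 68788327 reads per library.

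Differences were fitted with limma 3.58.1 (R 4.3.3; trended empirical Bayes) on log2(FPM + 1), with 1 mean for each of 6 groups in all 18 libraries and no covariate. The 13869 genes with at least 0.5 FPM in 3 or more libraries were tested, and calls used a Benjamini-Hochberg adjusted p under 0.05. The interactions are differences between 2 lines in the DM3 minus GM change. The fit was also run on simulated data with few genes changed in 1 group and libraries drawn independently. That run does not give error rates for the data used here, where many genes were called. Alternatives were a pseudocount of 0.1, no filter on low values, equal sums per library, the replicate number as a block, only the compared groups, edgeR 4.0.16 (quasi-likelihood) on the recovered reads, and leaving out each replicate. The length of the longest coding transcript was added after seeing the data. Tables and figures were made with Python 3.11.15, pandas 2.3.3, numpy 2.4.6 and matplotlib 3.10.9.

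The 10 genes, the wider list and the markers were chosen with earlier results of these data known. Named in the text are all 10 genes, the 3 highest and 3 lowest called genes of the wider list in each comparison, and the 3 genes most like each of the 10. Cardiac, smooth muscle, neuronal, adipocyte, osteoblast, macrophage, cycling myoblast and differentiating skeletal muscle markers were summed in FPM.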

Additional observations from a re-analysis of the deposited data

Results flagged for a closer look

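Differences between lines in the response to differentiation passed the test of the difference itself for 4 of the 10 genes, taken over 3 comparisons. Each is on the scale of log2(FPM + 1) with limma's Benjamini-Hochberg adjusted p. The MUNC spliced interaction called 3 of the 10, beside 14.4% of all tested genes (27.9% with the replicate number as a block). That of MUNC genomic called 1, beside 8.81% (16.3%), and the difference between the responses of the 2 lines called 2, beside 10.5% (19.6%). The share of all genes called in any of these comparisons was not counted. The response of Ryr1 exceeded that of control by 2.352 in MUNC spliced cells (adjusted p 0.0117, 1.65 without MUNC spliced DM3 replicate 1) and by 2.464 in MUNC genomic cells (adjusted p 0.00953). The response of MUNC spliced cells exceeded that of control by 1.144 for Casq1 (adjusted p 0.0125) and by 1.915 for Casq2 (adjusted p 0.0148). Without the same library these were 0.86 and 1.36, and Casq1 had passed the filter on low values only through groups where it was high. The Casq1 difference missed the threshold under edgeR (adjusted p 0.0502). The MUNC spliced response exceeded that of MUNC genomic cells by 1.916 for Casq2 (adjusted p 0.0164) and by 1.378 for Cacna1s (adjusted p 0.0491). Without MUNC spliced DM3 replicate 1 these were 1.36 and 0.96, and the Cacna1s difference was not called (adjusted p 0.0886). The Cacna1s call was kept in 2 of 6 other settings and in 1 of 12 fits with a library left out. Cacna1s, like Casq1, had passed the filter only through groups where it was high.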

How the results depend on the processing

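For single genes, 693 of 720 values under another setting and 867 of 900 with 1 library left out kept their side of the threshold. None of these changed sign where either value passed. Changes of sign between values that did not pass were not counted: the Atp2a1 response of MUNC spliced against MUNC genomic cells was 0.17 in the main fit and -1.33 under edgeR. One reversed from a passing value: the Cacna1s response in the same comparison was -2.729 under edgeR (adjusted p 0.570). The count of the 10 genes called for that comparison of responses, 2, was 1 with a pseudocount of 0.1, with no filter on low values, with only the compared groups fitted and under edgeR, and 1 to 3 with a library left out. MUNC genomic against control in DM3, 2 genes, gave 1 with no filter, 4 with only the compared groups and 1 to 2 with a library left out. Under edgeR, Casq1 was called there as well (1.85, adjusted p 0.0203). In GM, 0 genes became 1 with only the compared groups (Casq2, 0.45, adjusted p 0.0434), and 0 to 1 with a library left out (Jph2, 0.55, adjusted p 0.0380, without MUNC genomic GM replicate 1). The cause was not tested.

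With a replicate block, MUNC spliced DM3 against GM went from 7 to 8 genes (Atp2a2, -0.33, adjusted p 0.0440), and no other count of the 10 genes changed. Over all tested genes the block raised the called interactions of MUNC spliced from 1993 to 3868 and of MUNC genomic from 1222 to 2265, and the difference of responses from 1460 to 2716 (27.9%, 16.3% and 19.6% of tested genes), while 3, 1 and 2 of the 10 genes were called in them as before. For differentiation the block gave 65.3% of tested genes in control, 47.7% in MUNC spliced and 60.2% in MUNC genomic cells. Same-numbered libraries of different groups had correlated deviations (r -0.06 to 0.73 over 45 pairs, 36 above 0.1), and 17 of 18 libraries were closest to their own number. The labels do not say that a number marks a shared day or culture, so numbers were not treated as pairing.

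Over all genes, fitting only the compared groups gave 3046 calls in place of 4933 for MUNC spliced differentiation and 1214 in place of 1993 for its interaction. For MUNC genomic, edgeR gave 777 interaction calls in place of 1222. Leaving out 1 library gave as few as 1063 (control DM3 replicate 3), 1093 (control DM3 replicate 2) and 1203 (MUNC spliced GM replicate 2) calls for the MUNC spliced interaction. It gave 784 (control DM3 replicate 2) for the MUNC genomic one, and 930 (MUNC genomic DM3 replicate 3) and 953 (MUNC genomic GM replicate 1) for the difference of responses. Equal sums per library moved the split of higher to lower calls in GM from 2530 and 2399 to 3241 and 1658 for MUNC spliced against control, from 1694 and 2017 to 2049 and 1598 for MUNC genomic, and from 1030 and 963 to 802 and 1133 for the MUNC spliced interaction, which edgeR put at 1042 and 635. Depth limits Cacna1s and Casq1, which had 0 to 16 reads in each GM library.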

Other observations

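Mtm1 and Kcnj2 of the wider list were lower in MUNC genomic cells than in the other lines in both media, and Mtm1 was near 0. Mtm1, which encodes myotubularin, had 0.0573, 0.0169 and 0 FPM in MUNC genomic GM and 0.0989, 0.0452 and 0.0390 FPM in DM3, which is at most 5 reads per library. Control libraries had 11.1, 23.3 and 6.65 FPM in GM and 25.5, 22.9 and 21.2 FPM in DM3, and MUNC spliced libraries 4.20 to 6.73 FPM and 7.998 to 11.9 FPM. Kcnj2, an inward rectifier, had 0.587, 0.642 and 0.126 FPM in MUNC genomic GM and 1.07, 1.37 and 1.01 FPM in DM3. MUNC spliced DM3 libraries had 55.8 to 82.5 FPM of Kcnj2 and control DM3 libraries 14.3 to 34.3 FPM. Neither gene overlapped between MUNC genomic cells and the other lines in the same medium.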
